A study of Homo sapiens with 18 samples.

Results

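The genes described here are the replication-dependent histone genes, which lie in clusters on chromosomes 6, 1 and 12 and encode the linker histone H1 and the core histones H2A, H2B, H3 and H4. They were found by their older symbols, HIST1 to HIST4 followed by the histone type, and made up 85 of the 58381 rows of each count table. Of these, 71 were annotated as protein coding and 14 as pseudogenes. By type there were 8 H1, 21 H2A, 25 H2B, 15 H3 and 16 H4 rows, and by cluster 64 HIST1, 16 HIST2, 4 HIST3 and 1 HIST4 row.

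Replication-dependent histone messengers are made in S phase, when new DNA must be packed into nucleosomes. Unlike other messengers they usually end at a stem-loop and carry no poly(A) tail. The stem-loop is bound by SLBP and the end is cut with the help of the U7 small nuclear ribonucleoprotein, while NPAT gathers the transcription machinery at the clusters. Some of the genes also make a polyadenylated form that ends further downstream, and libraries selected on the tail hold mainly such forms.

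Messenger RNA was sequenced from A673, TC-32 and TC-71, 3 established lines of Ewing sarcoma that carry the EWSR1::FLI1 fusion. Each line was reverse transfected by lipofection with 20 nM of either siFLI1, which is directed at the FLI1 part of the fusion, or siNeg, a negative control siRNA. There were 3 libraries of each kind per line, 18 in all, and the column names of TC-32 and TC-71 give 48 h. The series text also names the line ES-5838 and the siRNA siERG, which are not analysed here. All groups were transfected, and the counts of FLI1 cannot tell the fusion transcript from that of the normal gene.

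The TC-32 libraries held 24102487 to 33669271 counts, the TC-71 libraries 19685354 to 37234528, and the A673 libraries, the deepest, 114564479 to 120993595. The log2 fold change of the targeted gene, FLI1, was -1.03 for TC-32, -1.47 for TC-71 and -2.09 for A673, and further values given in 3 follow this order of lines. All Ewing sarcoma markers fixed for the check were detected in the control libraries except CD99, which is listed at 0 in the TC-71 table. Levels are given as CPM, the usual unit of counts scaled to library size, here with TMM factors. The summed CPM of 12 markers of other cell types was higher after siFLI1 in TC-32 and A673, at 14.3 to 16.4 against 5.47 to 7.54 in TC-32 and at 13.7 to 14.9 against 7.28 to 8.82 in A673. In TC-71 it was 2.37 to 3.37 against 1.39 to 2.56, and the groups overlapped. Its part in the results was not tested.

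The sequence at the end of the messenger shows what sets these genes apart. All 71 coding members held a perfect match to the histone stem-loop within 150 bases after the stop codon, against 2 of 19962 other protein-coding genes (0.01%) in GENCODE 44. The most frequent loop was shared by 41 members. The stem-loops of 6 members that the results turn on are given 5′ to 3′ on the gene's strand from GRCh38, with the 16 bases of stem and loop in capitals and 5 flanking bases on each side in lower case. The first 4 genes rose and the last pair fell after siFLI1.
HIST1H2BK (chr6:27146361-27146386, minus strand): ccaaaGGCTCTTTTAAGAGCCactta
HIST1H1C (chr6:26055739-26055764, minus strand): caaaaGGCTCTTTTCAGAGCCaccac
HIST2H2BE (chr1:149886183-149886208, minus strand): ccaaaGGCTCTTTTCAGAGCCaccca
HIST1H2AC (chr6:26124664-26124689, plus strand): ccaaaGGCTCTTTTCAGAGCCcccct
HIST1H2BH (chr6:26252050-26252075, plus strand): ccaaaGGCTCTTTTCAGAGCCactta
HIST2H2AC (chr1:149887386-149887411, plus strand): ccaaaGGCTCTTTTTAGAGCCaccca

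Genes that rose and genes that fell thus held the same kind of stem-loop, and HIST1H1C, HIST2H2BE, HIST1H2AC and HIST1H2BH held the same 16 bases. The members differed more in how far the annotation carries them past the stem-loop. In GENCODE 44, 19 coding members had a long structure, meaning a second exon or an end more than 300 bases past the stop codon, and 52 had a short structure that ends close to the stem-loop. A second exon alone was enough: HIST1H3J counts as long although its annotation ends 67 bases past the stop. The poly(A) signal AATAAA, searched on the gene's strand within 1000 bases after the stop, was present in 46.5% of the coding members and in 61.9% of other protein-coding genes. It was found in 42.1% of the members with a long structure and 48.1% of those with a short structure. The window follows the genome, so for long members it can hold intron or stop short of the annotated end. That end lay 14491 bases past the stop for HIST1H2AC and 1801 for HIST2H2BE. HIST2H2BE had no AATAAA in the window but 1 before its annotated end. These shares therefore cannot compare the ends of long and short forms. HIST1H1C, which is annotated as short, had AATAAA 55 bases after the stop. HIST1H2BK, also short, had none in the window, and the short gene HIST1H2BH, which fell, had it 615 bases after the stop.

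Most members were scarce, as their share of all counts shows. Together the 85 members took 0.00165% to 0.00180% of the counts in TC-32 siNeg libraries, 0.00732% to 0.00777% in TC-71 and 0.00268% to 0.00283% in A673. After siFLI1 these shares were 0.00567% to 0.00597%, 0.0224% to 0.0232% and 0.00383% to 0.00403%. TC-32 had at least 1 count for 68 members, TC-71 for 61 and A673 for 71, and 10 members had 0 counts in all 18 libraries. The low-count filter left 22, 28 and 30 members to be tested, and 48 members were tested in no line. In TC-32, 11 of the 22 reached the level of the filter in all 3 libraries of the siFLI1 group only. For those members the filter favoured higher levels after siFLI1, though it did not fix the direction. A further 4 reached it in the siNeg group only. In TC-71, 3 members reached it in the siFLI1 group only and 3 in the siNeg group only, and in A673 1 and 3. The counts over tested members are therefore a description and not a measure of the whole set.

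In TC-32, siFLI1 was followed by higher levels of most histone genes that could be tested. Of 22 members, 16 were higher and 2 lower, and the background of all genes was 81.4% called, with 41.3% higher and 40.1% lower. In TC-71, 19 of 28 members were higher and 4 lower, beside 71.9% of all genes called, 36.8% higher and 35% lower. In A673, 13 of 30 members were higher and 5 lower, beside 71% of all genes called, 35.6% higher and 35.4% lower. The share of members called was thus near the background in TC-32 (81.8%), above it in TC-71 (82.1%) and below it in A673 (60%). The median log2 fold change of the members tested was 2.24, 0.79 and 0.34, against 0.02, 0.02 and -0.01 for all genes tested. At a 2-fold threshold, 14 members were higher and 2 lower for TC-32 (beside 22% and 15.6% of all genes), 13 and 4 for TC-71 (beside 14.1% and 9.38%), and 6 and 3 for A673 (beside 13.3% and 9.87%). Of the 15 members tested in all lines, 11 were called higher in each. They were HIST1H2BK, HIST1H2AC, HIST1H1C, HIST2H2BE, HIST1H2BD, HIST1H2BN, HIST2H2BF, HIST1H3E, HIST1H3H, HIST1H4H and HIST1H2AG. The last 6 of these and HIST2H2BE reached the level of the filter in TC-32 in the siFLI1 group only. For them the filter favoured a rise there. The share of all genes called higher in each line was not counted.

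**Figure D1:**
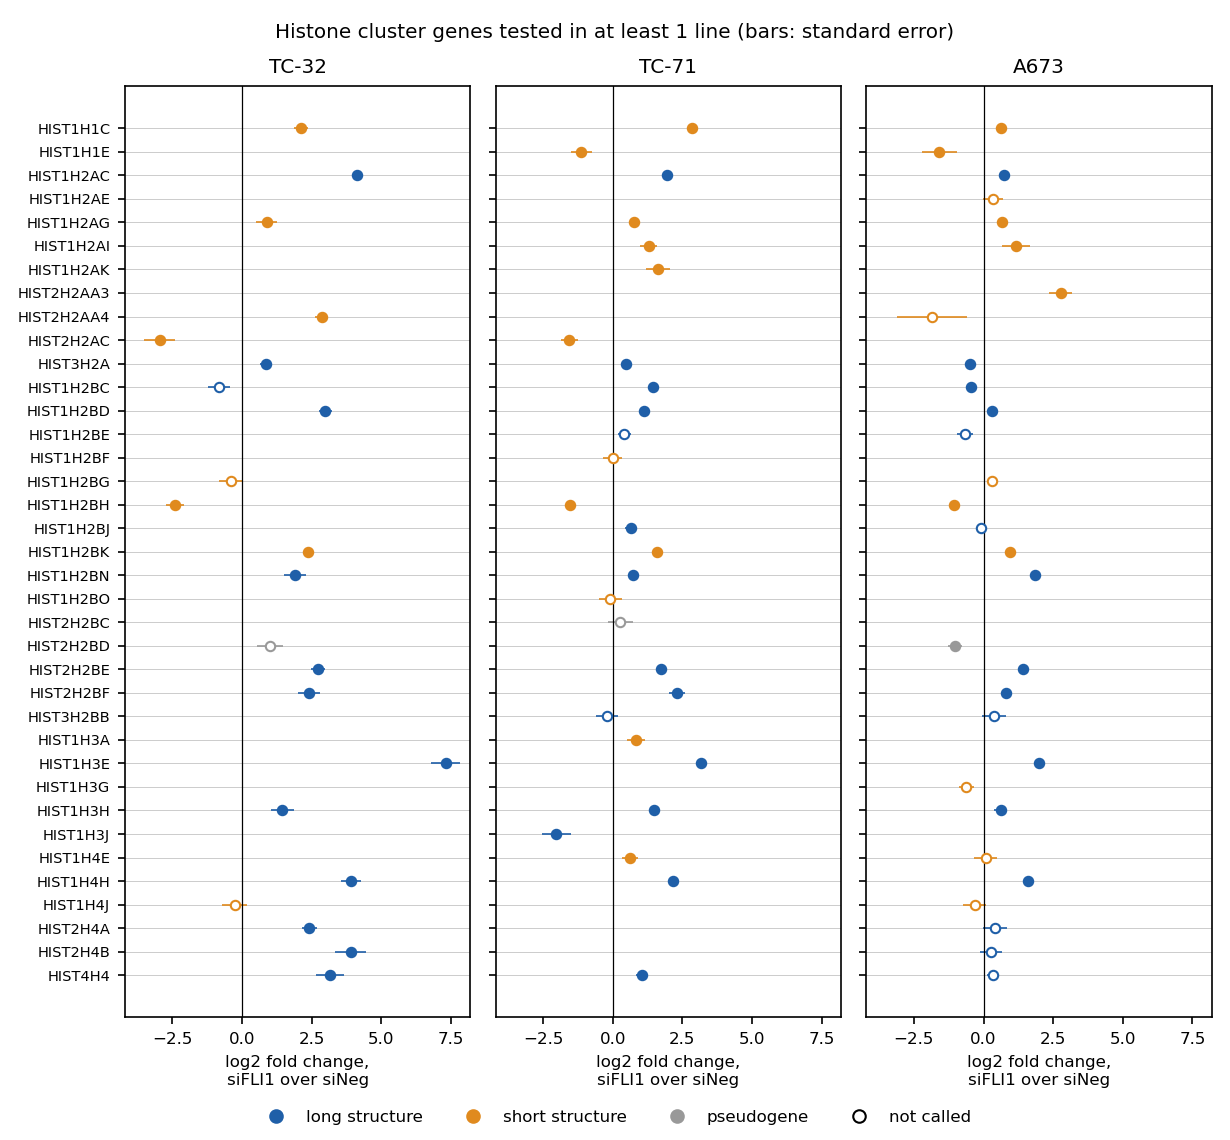
Log2 fold change of siFLI1 over siNeg (x axis, with standard error) for each of the 37 members tested in at least 1 line, ordered by histone type, in TC-32, TC-71 and A673. Filled points passed an adjusted p of 0.05; HIST1H2BH lies left of 0 in every line, and most long-structure members (blue) lie right of it.

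The core histone H2B gene HIST1H2BK (H2BC12 in current naming, ENSG00000197903.7, chr6:27146361-27146855, minus strand, a single exon) had the highest level over the 3 lines. In TC-32 it stood at 0.921, 1.17 and 0.968 CPM in the siNeg libraries and at 5.14, 5.58 and 5.18 CPM after siFLI1. In TC-71 the siNeg values were 14, 14.8 and 15.2 CPM and the siFLI1 values 43.3, 44.9 and 44.3 CPM. A673 had 2.19, 2.07 and 2.20 CPM against 3.88, 4.65 and 4.09 CPM. The groups did not overlap in any line. Its log2 fold change was 2.37 (SE 0.18) in TC-32, 1.59 (SE 0.07) in TC-71 and 0.97 (SE 0.09) in A673, with adjusted p of 8.90e-12, 9.17e-19 and 1.31e-07 by edgeR's quasi-likelihood test with Benjamini-Hochberg adjustment.

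HIST1H2AC (H2AC6, ENSG00000180573.9, chr6:26124145-26139116, plus strand) encodes a core histone H2A and is annotated with a second exon that carries its transcripts far past the stem-loop. Its siNeg libraries had 0.461, 0.603 and 0.421 CPM in TC-32, and its siFLI1 libraries 9.66, 8.47 and 8.56 CPM. In TC-71 it went from 5.09, 4.36 and 4.34 CPM to 17.2, 18.1 and 18.4 CPM. In A673 it went from 3.39, 3.78 and 3.28 CPM to 5.84, 5.73 and 5.78 CPM. Every siFLI1 library lay above every siNeg library of its line, and the log2 fold change was 4.14 (SE 0.18), 1.96 (SE 0.10) and 0.73 (SE 0.08), with adjusted p of 2.14e-16, 7.43e-17 and 3.83e-07 by edgeR.

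The linker histone gene HIST1H1C (H1-2, ENSG00000187837.3, chr6:26055740-26056470, minus strand) showed its greatest rise in TC-71. There the siNeg libraries had 10.0, 11.4 and 11.4 CPM and the siFLI1 libraries 82.6, 78.3 and 73.2 CPM, a log2 fold change of 2.84 (SE 0.07, adjusted p = 1.92e-24). In TC-32 the values were 0.461, 0.867 and 0.715 CPM against 2.95, 3.36 and 2.64 CPM, and in A673 1.42, 1.28 and 1.53 CPM against 2.15, 2.27 and 2.12 CPM. The log2 fold change was 2.12 (SE 0.24, adjusted p = 2.28e-08) in TC-32 and 0.63 (SE 0.11, adjusted p = 8.11e-05) in A673. The groups were apart in all lines. HIST1H1C and HIST1H2BK were the members of short structure with the highest mean log2 CPM over the 3 lines.

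**Figure D2:**
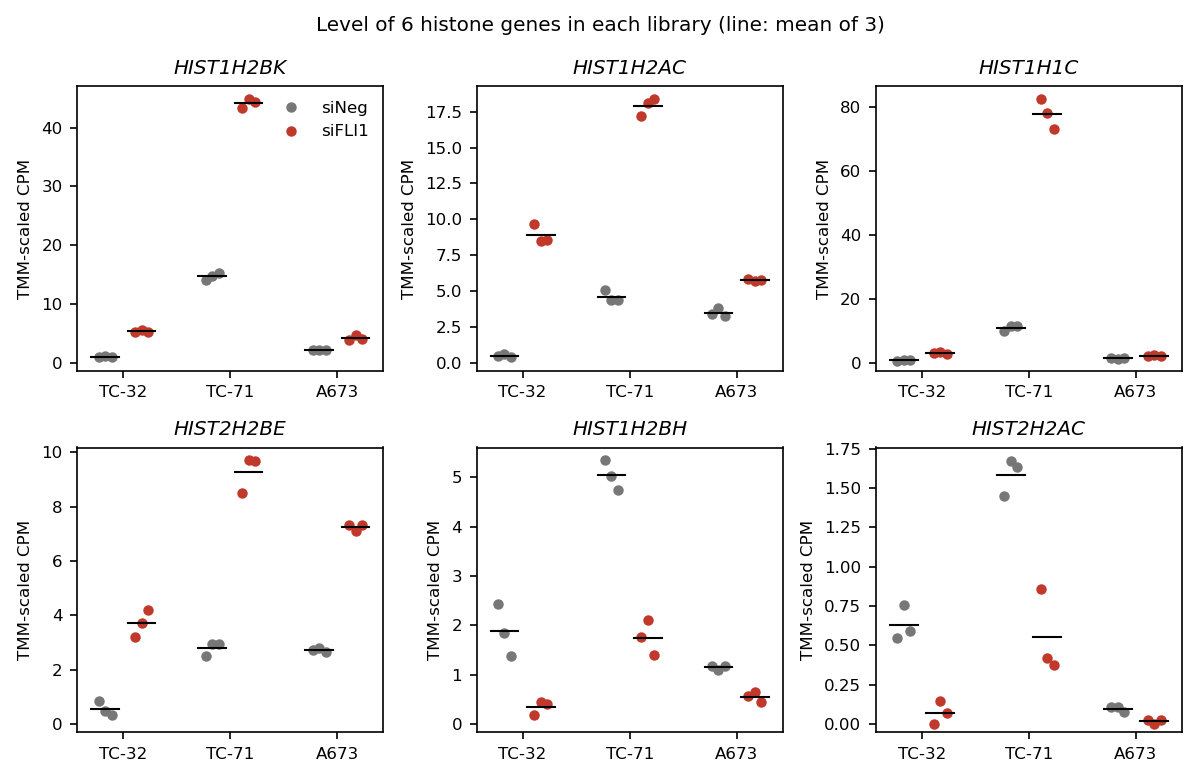
TMM-scaled CPM (y axis, linear, 1 panel per gene) in each library of the 3 lines, siNeg in grey and siFLI1 in red, with a line at the mean of 3. HIST1H2BK, HIST1H2AC, HIST1H1C and HIST2H2BE were higher in every siFLI1 library of a line than in its siNeg libraries, and HIST1H2BH and HIST2H2AC were lower.

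Among the H2B genes with a long structure, HIST2H2BE (H2BC21, ENSG00000184678.10, chr1:149884459-149886682, minus strand) rose in each line. Its CPM were 0.837, 0.490 and 0.337 against 3.22, 3.71 and 4.20 in TC-32, and 2.53, 2.94 and 2.95 against 8.51, 9.71 and 9.67 in TC-71. In A673 they were 2.72, 2.80 and 2.65 against 7.32, 7.13 and 7.35. The log2 fold change was 2.74 (SE 0.26), 1.74 (SE 0.12) and 1.42 (SE 0.07). HIST1H2BD, another H2B gene with a second annotated exon, rose by 3.00, 1.12 and 0.30 on the same scale. Its call in A673 (adjusted p = 0.0155) was lost when siNeg replicate 1 (0.0594), siNeg replicate 2 (0.0516) or siFLI1 replicate 2 (0.0566) was left out and with library size alone (0.0959), each p from edgeR. HIST1H2BN rose by 1.90, 0.72 and 1.86 and HIST2H2BF by 2.41, 2.31 and 0.82. HIST2H2BF was named after its values were seen.

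The H3 gene HIST1H3E (H3C6, ENSG00000274750.2, chr6:26224199-26227473, plus strand) was almost absent from TC-32 siNeg libraries. They held 0, 0 and 1 count of it, and the siFLI1 libraries 69, 104 and 86 counts. The ratio of the scaled sums was 215, with an exact 95% interval of 38.3 to 8529 that covers counting error only. In TC-71 the gene went from 1.26, 1.52 and 1.18 CPM to 11.9, 11.4 and 11.6 CPM, a log2 fold change of 3.15 (SE 0.14, adjusted p = 1.83e-18). In A673 it went from 0.491, 0.689 and 0.379 CPM to 1.98, 2.20 and 2.09 CPM, a log2 fold change of 2.00 (SE 0.17, adjusted p = 1.89e-08). No siNeg library reached the level of any siFLI1 library of its line. The other long H3 gene with calls in each line, HIST1H3H, rose by 1.45, 1.47 and 0.62. Its A673 call (adjusted p = 0.0243) was lost without siNeg replicate 2 (0.0952), siFLI1 replicate 2 (0.0563) or siFLI1 replicate 3 (0.0592), with DESeq2 (0.0697) and with library size alone (0.0533).

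H4 genes followed the same direction where they were tested and called. HIST1H4H (H4C8, ENSG00000158406.4, chr6:26277609-26285638, minus strand) rose from 0.0837, 0.113 and 0.210 CPM to 2.34, 2.17 and 1.83 CPM in TC-32. In TC-71 it rose from 2.79, 3.65 and 2.39 CPM to 11.7, 13.9 and 13 CPM, and in A673 from 0.491, 0.410 and 0.632 CPM to 1.52, 1.62 and 1.53 CPM. The groups were apart in all lines, and the log2 fold changes were 3.92 (SE 0.37), 2.16 (SE 0.13) and 1.61 (SE 0.16). HIST4H4, the lone gene on chromosome 12, rose by 3.16 in TC-32 and 1.06 in TC-71, and its difference in A673 was 0.33 (SE 0.20, adjusted p = 0.146 by edgeR). It was named after its values were seen.

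HIST2H4A and HIST2H4B share all of their 50-base words, and HIST2H2AA4 shares 99.8% of its words with HIST2H2AA3, so reads cannot be assigned to either copy with certainty. In A673 the estimated counts moved between the copies from library to library. For HIST2H4A they were 104, 276 and 111 after siFLI1, and for HIST2H4B 269, 99 and 254. Summed before the fit, a choice made after the values were seen, the H4 pair went from 1.08 ± 0.10 to 9.77 ± 0.87 CPM in TC-32 (SD, n = 3), a log2 fold change of 3.17 (SE 0.15, adjusted p = 1.01e-15 by edgeR). In A673 the pair went from 2.54 ± 0.07 to 3.2 ± 0.01 CPM (SD, n = 3), a log2 fold change of 0.33 (SE 0.09, adjusted p = 0.00255 by edgeR). The H2A pair went from 0.656 ± 0.318 to 4.55 ± 0.34 CPM in TC-32 and from 0.685 ± 0.154 to 1.70 ± 0.30 CPM in A673, log2 fold changes of 2.78 (SE 0.24) and 1.31 (SE 0.17). In TC-71, whose counts came from another program, the H2A pair is listed at 0 in every library and the H4 pair was too low to be tested.

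HIST1H2AG, an H2A gene with a short structure, rose by 0.75 (SE 0.17, adjusted p = 0.000298 by edgeR) in TC-71 and by 0.67 (SE 0.17, adjusted p = 0.00266) in A673. In TC-32 it was called at 0.88 (SE 0.36, adjusted p = 0.0269), although its siFLI1 values of 0.498, 1.16 and 0.846 CPM overlapped the siNeg values of 0.544, 0.452 and 0.379 CPM. That call was lost without siNeg replicate 2 (0.0708), siNeg replicate 3 (0.0953), siFLI1 replicate 2 (0.229) or siFLI1 replicate 3 (0.0611), with DESeq2 (0.0919) and with limma-voom (0.0527). A replicate block ended it too (0.0534 by edgeR).

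Against this direction, the H2B gene HIST1H2BH (H2BC9, ENSG00000275713.2, chr6:26251614-26252075, plus strand, a single exon ending just past the stem-loop) was the only member called lower in all 3 lines by the test with the low-count filter. In TC-32 its CPM were 2.43, 1.85 and 1.39 in siNeg and 0.192, 0.446 and 0.406 in siFLI1 libraries. In TC-71 they were 5.35, 5.02 and 4.75 against 1.76, 2.10 and 1.40. A673 had 1.17, 1.09 and 1.18 against 0.566, 0.644 and 0.446. All siFLI1 libraries lay below all siNeg libraries of their line. The log2 fold change was -2.39 (SE 0.33), -1.55 (SE 0.16) and -1.05 (SE 0.16), with adjusted p of 3.65e-07, 1.22e-09 and 2.15e-05 by edgeR.

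HIST2H2AC, HIST1H1E and HIST1H3J also fell in 1 or more lines and were named after their values were seen. The H2A gene HIST2H2AC (H2AC20, ENSG00000184260.5, chr1:149886918-149887411, plus strand) had 0.544, 0.754 and 0.589 CPM in TC-32 siNeg libraries and 0, 0.149 and 0.0677 CPM after siFLI1. In TC-71 it had 1.45, 1.67 and 1.63 CPM against 0.859, 0.421 and 0.377 CPM. The groups were apart, with log2 fold changes of -2.95 (SE 0.56) and -1.57 (SE 0.30) and adjusted p of 3.18e-05 and 3.62e-05 by edgeR. In A673 it was too low for the filter, at 13, 13 and 9 counts against 3, 0 and 3 counts, and the fit without the filter called it lower there too (log2 fold change -2.42, adjusted p = 0.00209 by edgeR). The linker histone gene HIST1H1E fell by 1.13 in TC-71 (adjusted p = 0.00895 by edgeR) and by 1.58 in A673 (adjusted p = 0.0300). The TC-71 call was lost without siNeg replicate 1 (0.0644) or siFLI1 replicate 3 (0.0859), and the A673 call without any library other than siFLI1 replicate 2, with adjusted p of up to 0.120, and with DESeq2 (0.0786). The H3 gene HIST1H3J, which shares 40.3% of its exon bases with H2AC17, fell by 2.02 in TC-71.

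The level of RNAs that carry no tail by nature differed as well. The summed CPM of 14 such RNAs, among them the signal recognition particle RNAs and RN7SK, was 10.7 to 21.5 in TC-32 siNeg and 6.94 to 7.34 in siFLI1 libraries. In TC-71 it was 198 to 395 against 66.8 to 147, and in A673 2.17 to 2.99 against 1.83 to 2.11. RN7SK itself rose by 1.19 in TC-32. The part of tail selection in the falls of short histone genes was not tested.

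Many of the falls in TC-32 lay below the filter. There, 46 members had counts but too few for the main test, and their counts summed to 340 in the 3 siNeg and 251 in the 3 siFLI1 libraries. Fitted without the filter, 9 of these were called lower, all of short structure, and 2 higher. Over all 68 members with a count, that fit called 19 higher and 11 lower, where it called 51% of all genes, 26.9% higher and 24.1% lower. The median log2 fold change of the members then stood at -0.29 in place of 2.24. The linker histone gene HIST1H1B was at 4, 1 and 12 counts in TC-32 siNeg libraries and at 0 in each siFLI1 library, and siNeg replicate 3 held 12 of its 17 counts. HIST1H3B, HIST1H3C, HIST1H2AL and HIST1H2AH had 7, 9, 9 and 6 counts over the siNeg libraries and 0 after siFLI1.

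In TC-71, the same fit called 19 members higher and 8 lower of 61 with a count, beside 40.6% of all genes (21.4% higher, 19.2% lower), and 33 members below the filter summed to 309 counts in siNeg and 297 in siFLI1 libraries. In A673, it called 13 higher and 9 lower of 71, beside 45.8% of all genes (22.9% in each direction), and 41 members below the filter summed to 395 and 299 counts. The median log2 fold change without the filter was 0.62 in TC-71 and -0.01 in A673. With the scarce members included, the median was thus lower in each line than over the members that passed the filter.

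**Figure D3:**
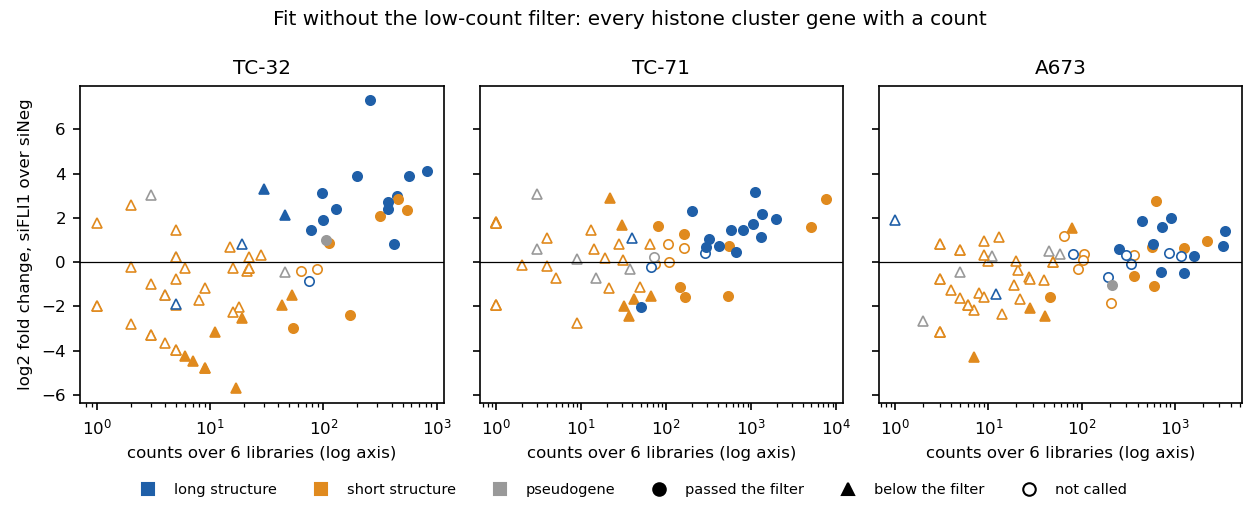
Log2 fold change of siFLI1 over siNeg (y axis) against the counts over 6 libraries (x axis, log scale) for all members with a count, from the fit without the low-count filter. Circles passed the filter, triangles did not, and filled symbols passed an adjusted p of 0.05; in TC-32 the members above 100 counts lie mostly above 0 and the scarce short-structure members (orange) mostly below.

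The tested members were counted by structure, as a description only. Of the members with a long structure, 12 of 13 tested in TC-32 were called higher. However, 8 of these 12 reached the level of the filter in the siFLI1 group only, which favoured a rise. In TC-71, 12 of 15 were higher and 1 lower, and in A673 8 of 16 were higher and 2 lower. Of those with a short structure, 4 were higher and 2 lower of 8 in TC-32, 7 and 3 of 12 in TC-71, and 5 and 2 of 13 in A673. Here too, 2 of the rises in TC-32 and 2 in TC-71 reached the level of the filter in the siFLI1 group only. The 2 falls in TC-32, HIST1H2BH and HIST2H2AC, 1 in TC-71 and 1 in A673 reached it in the siNeg group only. Among long members of TC-71, 1 rise and the 1 fall, HIST1H3J, were of these kinds. The shares of all genes given above, 41.3% higher and 40.1% lower in TC-32, 36.8% and 35% in TC-71 and 35.6% and 35.4% in A673, are the background of these counts. Summed over the 19 long members, the level of TC-32 went from 6.32 ± 0.56 to 40.2 ± 1.1 CPM, that of TC-71 from 31.7 ± 0.3 to 91.7 ± 2.6 CPM and that of A673 from 17.5 ± 0.2 to 28.5 ± 0.4 CPM (SD, n = 3). Summed over all 52 short members, the level also stood higher after siFLI1, going from 10.3 ± 0.2 to 16.5 ± 1.4 CPM, from 42.4 ± 1.6 to 137 ± 4 CPM and from 8.57 ± 0.51 to 11.8 ± 0.7 CPM. The short sum of TC-71 was 3.23-fold higher, against 2.89-fold for the long sum. HIST1H1C and HIST1H2BK carried these differences: without them, a class set after the values were seen, the sum over 50 short members went from 8.58 ± 0.57 to 8.19 ± 0.84 CPM, from 16.8 ± 1.1 to 14.7 ± 0.1 CPM and from 5.01 ± 0.47 to 5.46 ± 0.26 CPM. These sums overlapped between groups in TC-32 and A673. They still held the near-identical copies HIST2H2AA3 and HIST2H2AA4. That pair rose from 0.656 to 4.55 CPM in TC-32 and from 0.685 to 1.70 CPM in A673. The mean sum of the other short members was thus lower after siFLI1 in these lines. The long and short classes rest on GENCODE 44, and the release the authors counted with is not given in the sources used here.

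By histone type, the summed level was higher after siFLI1 for every type and line. In TC-32 the sum over H4 went from 2.75 ± 0.42 to 13.6 ± 0.9 CPM, 4.95-fold higher, and those of H2A, H2B, H1 and H3 were 3.78, 2.68, 2.58 and 2.50-fold higher. In TC-71 the sum over H1 went from 12.5 ± 0.5 to 79.1 ± 4.8 CPM, 6.35-fold higher, and almost all of it was HIST1H1C. The H3, H4, H2A and H2B sums in TC-71 were 3.67, 2.84, 2.24 and 2.23-fold higher. In A673 the folds were between 1.40 for H1 and 1.83 for H3. The 3 siFLI1 libraries lay above the 3 siNeg libraries for each type in each line. These are sums of chosen members and carry no test. In TC-32 the copies HIST2H4A and HIST2H4B held 1.08 CPM of the H4 sum in siNeg and 9.77 CPM in siFLI1 libraries. In TC-71, counted by another program, they held 0.151 and 0.321 CPM, and HIST2H2AA3 and HIST2H2AA4 held 0. The H4 and H2A sums of these lines thus cover different genes.

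**Figure D4:**
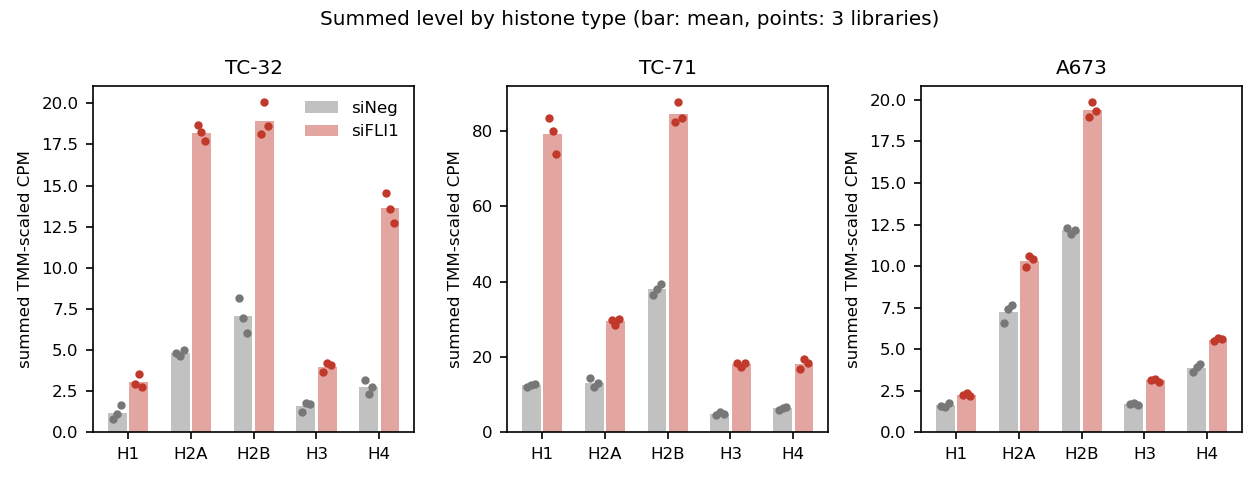
Summed TMM-scaled CPM of all members of a histone type (y axis, from 0, with its own scale per line) in siNeg (grey) and siFLI1 (red) libraries; bars are means and points the 3 libraries. The H1 sum of TC-71 stands out after siFLI1 at 79.1 CPM.

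Levels of different genes can be compared only per length, here as CPM per kilobase of annotated exon. In TC-71 siFLI1 libraries HIST1H1C stood at 107 and HIST1H2BK at 89.2 CPM per kilobase, above HIST1H2BD at 12.5 and HIST1H2AC at 10.7. In TC-71 siNeg libraries HIST1H2BK led with 29.7, followed by HIST1H1C with 14.9 and HIST1H2BH with 10.9. HIST1H2BH was the leading member of this group of 5 in TC-32 siNeg libraries, with 4.09 CPM per kilobase against 2.06 for HIST1H2BK. After siFLI1 the order in TC-32 was reversed, with 0.753 for HIST1H2BH and 10.7 for HIST1H2BK.

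Neighbouring genes did not always move together. Histone genes are often arranged head to head, reading away from a short shared promoter. Of the members, 14 pairs had such divergent starts within 1000 bases, 12 of them an H2A and an H2B gene. HIST2H2BE and HIST2H2AC start 236 bases apart on chromosome 1 and moved in opposite directions in TC-32 (2.74 against -2.95) and TC-71 (1.74 against -1.57). Those were the only opposite calls among the 2 pairs in TC-32 and 6 pairs in TC-71 that had both genes tested. In TC-32, HIST2H2BE reached the level of the filter in the siFLI1 group only and HIST2H2AC in the siNeg group only. The filter thus favoured these directions there. In TC-71 each of them reached the level in both groups. HIST1H2BC and HIST1H2AC start 219 bases apart on chromosome 6 and were opposite in A673 (-0.44 against 0.73), 1 of 4 such pairs there. In TC-71 both of these genes rose, by 1.44 and 1.96.

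The promoters are shown because genes that moved in opposite directions share the octamer and CCAAT. They cover 250 bases before and 50 after the start and come from RefSeq (GRCh38.p14), which had one for 66 of the coding members. Capitals mark ATTTGCAT, the octamer of H2B promoters, CCAAT, and TATAAA, each searched on both strands.
HIST2H2BE (chr1:149886633-149886932, minus strand): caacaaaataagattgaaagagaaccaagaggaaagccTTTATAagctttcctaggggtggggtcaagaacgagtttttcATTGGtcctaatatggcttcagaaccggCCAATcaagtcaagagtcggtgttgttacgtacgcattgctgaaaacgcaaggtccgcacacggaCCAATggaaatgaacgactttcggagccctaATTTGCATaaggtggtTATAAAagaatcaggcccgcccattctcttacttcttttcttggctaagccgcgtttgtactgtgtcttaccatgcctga
HIST1H2BK (chr6:27146809-27147108, minus strand): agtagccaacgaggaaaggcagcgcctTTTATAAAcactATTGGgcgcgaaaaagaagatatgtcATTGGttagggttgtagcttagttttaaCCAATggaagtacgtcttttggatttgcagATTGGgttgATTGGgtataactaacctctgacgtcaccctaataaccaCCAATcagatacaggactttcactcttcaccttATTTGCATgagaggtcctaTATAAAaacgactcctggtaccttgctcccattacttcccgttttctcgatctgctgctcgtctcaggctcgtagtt
HIST1H2BH (chr6:26251364-26251663, plus strand): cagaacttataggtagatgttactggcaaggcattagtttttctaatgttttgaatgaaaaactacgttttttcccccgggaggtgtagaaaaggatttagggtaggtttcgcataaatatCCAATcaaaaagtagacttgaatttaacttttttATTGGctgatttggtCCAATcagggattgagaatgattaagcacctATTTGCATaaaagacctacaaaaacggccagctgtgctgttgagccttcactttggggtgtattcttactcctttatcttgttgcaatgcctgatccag

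The HIST2H2BE window shares 265 of its 300 bases with the window of HIST2H2AC, which reads the other way. HIST2H2BE and HIST1H2BK rose and HIST1H2BH fell, and all of these windows hold the octamer and 3 or more CCAAT. The TATAAA element was matched 2 times in the HIST2H2BE window, 3 times in that of HIST1H2BK and 0 times in that of HIST1H2BH. In the HIST1H2BK window, 2 of the 3 matches overlap in TTTATAAA, which was read on both strands. The matches did not follow the direction of change in every gene. HIST2H2AC fell in TC-32 and TC-71, and its window also held 2. HIST1H1C and HIST2H2BF rose in each line, and their windows held 0. ATTTGCAT was present in 77.8% of H2B and 68.8% of H2A windows, in 7.69% of H3 windows, in none of the 6 H1 and 13 H4 windows, and in 1.77% of 35116 RefSeq promoters of the same length. CCAAT was in 84.8% of the members' windows against 34.6% of all, and TATAAA in 66.7% against 11.5%. Where both genes of a divergent H2A and H2B pair had a window, the windows shared 253 to 293 of 300 bases. The shares of H2A and H2B windows therefore rest in part on the same sequence. A run of 3 GGAA, the repeat to which the fusion is known to bind, was in none of the 66 windows and in 0.0854% of all. A match is a description of these windows and shows no binding.

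The size of the change differed between lines. In 1 model over the 18 libraries, the effect of siFLI1 differed between TC-32 and A673 for 18 of 37 members tested (48.6%, beside 62.1% of all genes), with the larger value in TC-32 for 16. Between TC-32 and TC-71 it differed for 14 of 37 (37.8%, beside 53.6%), with the larger value in TC-32 for 10. Between A673 and TC-71 it differed for 14 of 37 (37.8%, beside 51.6%), with the larger value in TC-71 for 12. These comparisons share libraries. The lines also differed in depth, in the fall of FLI1 and, for TC-71, in the counting program. Those differences cannot be told apart from the line itself. The members' shares were below those of all genes in each pair.

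HIST3H2A and HIST1H2BC were called in opposite directions in different lines. The H2A gene HIST3H2A (H2AC25, ENSG00000181218.5, chr1:228434777-228457873, minus strand) had 2.05, 1.55 and 1.81 CPM in TC-32 siNeg libraries and 3.22, 3.27 and 3.25 CPM after siFLI1. In TC-71 it had 3.94, 3.19 and 2.98 against 4.83, 4.67 and 4.55 CPM, and in A673 1.85, 1.91 and 2.41 against 1.08, 1.67 and 1.61 CPM. The groups did not overlap in any line, with log2 fold changes of 0.85, 0.47 and -0.50. The A673 call (adjusted p = 0.00877) was lost without siNeg replicate 3 (0.0721). The interaction test gave an adjusted p of 4.54e-06 for TC-32 against A673 and of 0.000165 for A673 against TC-71, by edgeR.

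HIST1H2BC (H2BC4, ENSG00000180596.7, chr6:26086317-26123926, minus strand) rose in TC-71 from 2.60, 2.59 and 2.50 CPM to 6.47, 7.73 and 6.68 CPM. In A673 it fell from 1.28, 1.07 and 1.08 CPM to 0.677, 0.910 and 0.936 CPM. The log2 fold change was 1.44 (SE 0.13) in TC-71 and -0.44 (SE 0.16, adjusted p = 0.0188) in A673, and the lines differed by 1.91 (adjusted p = 6.40e-09 by edgeR). In TC-32 it was -0.83 (SE 0.39, adjusted p = 0.0544). The A673 call was lost without siNeg replicate 1 (adjusted p = 0.0969) or siFLI1 replicate 1 (0.100), and the TC-32 difference was called without siFLI1 replicate 2 (0.0338) and with limma-voom (0.0488). The gene shares 30.9% of its exon bases with HFE and a further gene on the opposite strand, and whether counting used the strand is not given in the sources used here.

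Most genes of the related lists were lower after siFLI1. Of 23 genes of the G1 to S transition and replication, TC-32 had 23 lower, TC-71 22 and A673 21, with medians of -3.13, -1.97 and -0.82, where 40.1%, 35% and 35.4% of all genes were lower. The same shares are the background of the lower calls in the lists that follow, and 41.3%, 36.8% and 35.6% that of the higher calls. E2F2, a transcription factor of S phase entry, fell by 4.18, 2.59 and 2.10 on the log2 scale. MYBL2, which acts on cell cycle promoters, fell by 3.15, 2.21 and 1.38. CCNE1, which encodes cyclin E1, was the exception that rose in A673, by 0.79.

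Among 21 genes of histone 3′ end formation and cluster transcription, 17 were lower and 1 higher in TC-32, 15 and 3 in TC-71, and 10 and 6 in A673, with medians of -0.93, -0.43 and -0.10. In A673 these were 47.6% lower and 28.6% higher, near the shares of all genes. SLBP had 70.7, 76.1 and 71 CPM in TC-32 siNeg libraries and 20.8, 21.1 and 20.3 CPM after siFLI1, and in TC-71 110, 109 and 106 against 65.8, 63.4 and 64.8 CPM. In A673 it had 79.5, 81.5 and 78.9 against 78.1, 69.4 and 75.3 CPM. The groups were apart in all lines, and the log2 fold changes were -1.81, -0.74 and -0.11. The A673 call for SLBP (adjusted p = 0.0446) was lost under each omission of a library except siFLI1 replicate 1, with adjusted p of up to 0.224. It was also lost with DESeq2 (0.0548), RLE factors (0.0597) and a mean of at least 10 counts (0.0511). NPAT fell by 1.06, 0.60 and 0.45, and CASP8AP2, which works with it at the histone locus body, by 1.74, 0.78 and 0.53.

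Histone chaperones, which hand new histones to DNA, were lower for 15, 13 and 14 of 18 genes and higher for 1, 1 and 0. CHAF1B, a subunit of the replication-coupled chaperone CAF-1, fell by 2.74, 2.01 and 1.27. HJURP, the chaperone of the centromeric histone, fell by 3.34, 2.00 and 1.10.

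The replication-independent histone variants, whose messengers are polyadenylated, are the closest comparison by product. Of 12, those tested were lower for 9, 8 and 9 genes and higher for 2, 1 and 1, with medians of -0.73, -0.48 and -0.37. The H2A variant H2AFZ fell by 2.60, 1.45 and 0.60, the centromeric H3 variant CENPA by 3.39, 1.97 and 1.26, and the macroH2A gene H2AFY2 by 1.69, 0.67 and 2.01. H2AFX, now H2AX, is with BTBD10 the only gene outside the members with a perfect stem-loop after its stop, and it fell by 2.26, 1.39 and 0.39. The linker variant H1F0 rose by 0.21 in TC-32, was at 0.04 (adjusted p = 0.412 by edgeR) in TC-71 and fell by 0.32 in A673. H3F3B, which encodes H3.3, fell by 0.24 in TC-32 and rose by 0.26 and 0.35 in TC-71 and A673. In these bulk libraries fewer cells in S phase and less RNA per cell cannot be told apart.

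**Figure D5:**
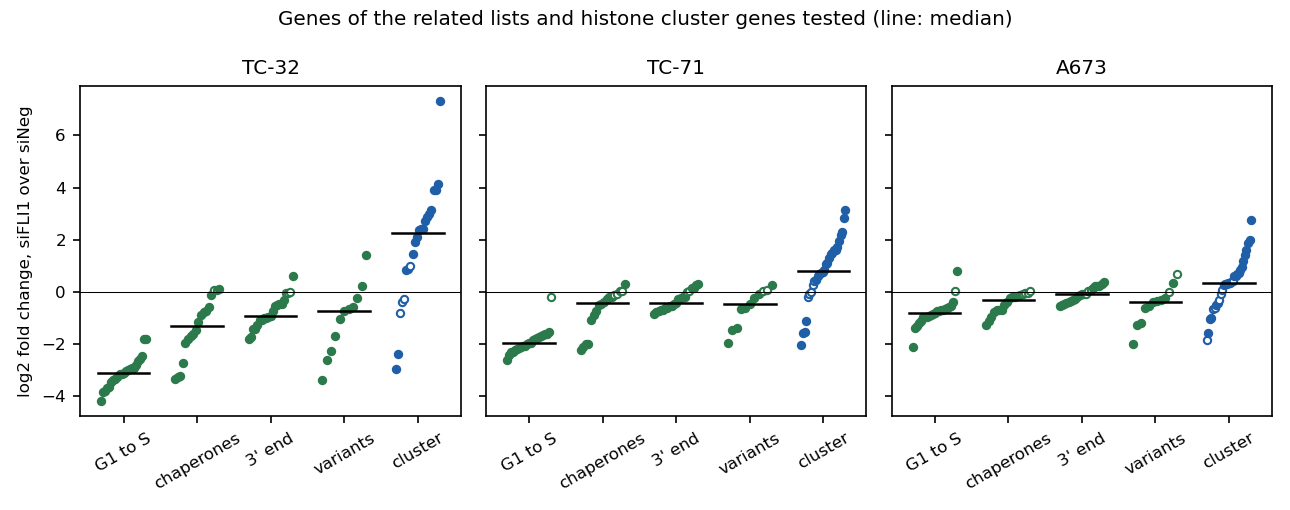
Log2 fold change of siFLI1 over siNeg (y axis) for each tested gene of the related lists (green) and of the histone cluster (blue), with a line at the median and open points for genes not called. The G1 to S genes lie below 0 with 1 called exception, CCNE1 in A673, while the cluster genes tested spread to both sides with medians of 2.24, 0.79 and 0.34.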

How the data were processed

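Libraries were prepared from total RNA with a stranded messenger RNA kit, per the labels' protocols. The authors deposited expected counts for A673 and TC-32, whose table names point to RSEM, and counts for TC-71, whose table name points to Subread. The TC-32 and TC-71 columns were assigned to their line by the name of the table. Per the submitters' processing notes, the tools were cutadapt 4.4, STAR 2.7.3, featureCounts of Subread 2.0.3 and limma 3.38.3, with GRCh38 (hg38). The annotation release and the strand setting are not given in the sources used here. Neither table was scaled to depth, and no library was pooled or left out.

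After rounding of the expected counts, the whole table of a line was fitted in R 4.3.3 with edgeR 4.0.16 (filterByExpr by group, TMM factors, robust dispersions, quasi-likelihood F-test, siFLI1 minus siNeg, prior count 0.125). Benjamini-Hochberg adjustment ran over all genes tested, and calls are at an adjusted p under 0.05. CPM are TMM-scaled, and SD are over 3 libraries. Differences between lines were tested as interaction contrasts in 1 model over the 18 libraries. A count of 0 allows up to 3 counts, which covers counting error only.

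Nothing says that replicates came from separate cultures, so p-values measure only the spread between these samples, which may be technical. Replicates of a group differed by more than counting noise, with a lowest chi-square per degree of freedom of 2.44 and a lowest Pearson r of 0.9915 across genes.

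Genes were matched to GENCODE 44 by identifier for 78 members and by RefSeq synonym for 7. Named members are the 14 with the highest mean log2 CPM and, per line, the 3 greatest called rises and 3 greatest falls whose mean log2 CPM was 0 or more, plus up to 2 members per pair of lines called in opposite directions. From each related list, genes fixed by name and the 2 with the largest smallest change called alike in all lines were named. The members, lists and this rule were chosen with earlier results of these data known.

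On simulated counts with 200 genes changed 2-fold, the test recovered 97.5% (TC-32), 99% (TC-71) and 97% (A673), and 4.41%, 3.88% and 3.96% of its calls were false. Interaction tests recovered 81.5% to 83.7%, and up to 6.46% of their calls were false. The changed genes were all raised and were drawn from those that passed the filter in siNeg libraries. A common dispersion was used for all genes, and 200 of 15124 to 18069 genes changed, where 71% to 81.4% were called in the data. These rates therefore do not describe the scarce members. As alternatives, DESeq2 1.42.0 and limma-voom (limma 3.58.1) were run, scaling used RLE factors or library size alone, the filter was dropped or set to a mean of 10 counts, counts were not rounded, a replicate block was added and each library was left out. Further ones were a 2-fold threshold, only members with no exon overlap or only coding ones, only the 12 libraries of a pair of lines, and summed copies.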

Additional observations from a re-analysis of the deposited data

Results flagged for a closer look

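The effect of siFLI1 on 1 or more named members differed between each pair of lines by the interaction test of edgeR. The values are differences of log2 fold changes. Line cannot be told apart here from depth, the fall of FLI1 or, for TC-71, the counting program.

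Between TC-32 and A673, the value in TC-32 was greater by 5.56 for HIST1H3E, 3.44 for HIST1H2AC, 2.73 for HIST1H2BD, 2.36 for HIST1H4H, 1.52 for HIST1H1C, 1.43 for HIST1H2BK, 1.38 for HIST3H2A and 1.36 for HIST2H2BE. The identical copies HIST2H4A and HIST2H4B gave 2.02 and 3.67, which cannot be told apart by copy. HIST1H2BH differed by -1.32, since it fell further in TC-32.

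Between TC-32 and TC-71, the value in TC-32 was greater by 4.37 for HIST1H3E, 2.18 for HIST1H2AC, 1.88 for HIST1H2BD, 1.78 for HIST1H4H, 1.18 for HIST1H2BN, 1.00 for HIST2H2BE and 0.78 for HIST1H2BK. It was smaller for HIST1H2BC, by -2.27, HIST1H2BH, by -0.86, and HIST1H1C, by -0.72.

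Between A673 and TC-71, HIST1H2BN was greater in A673 by 1.11. The others were greater in TC-71, with differences of A673 minus TC-71 of -2.24 for HIST1H1C, -1.91 for HIST1H2BC, -1.26 for HIST1H2AC, -1.19 for HIST1H3E, -1.0 for HIST3H2A, -0.89 for HIST1H3H, -0.86 for HIST1H2BD, -0.65 for HIST1H2BK and -0.59 for HIST1H4H. HIST1H3E had a sum of 1 count in TC-32 siNeg libraries, so its differences from TC-32 depend on the prior count.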

How the results depend on the processing

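Low counts limited the set, since 48 of 85 members were too low to be tested in any line. Without the low-count filter, TC-32 had 11 members called lower, TC-71 had 8 and A673 had 9, and the median log2 fold change was -0.29, 0.62 and -0.0086. With a mean of at least 10 counts, 1 member was called lower in TC-32. limma-voom called 8 members lower in A673. A 2-fold threshold left 6 members higher and 3 lower in A673, and 3 were lower there among members with no exon overlap. Near-identical copies summed, chosen after seeing the data, kept each count of members within 1.5 times.

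Leaving out each library in turn gave 2 to 5 members lower in TC-32 (4 without siFLI1 replicate 1, 5 without siFLI1 replicate 2 and 4 without siFLI1 replicate 3). It gave 4 to 7 in TC-71 (7 without siFLI1 replicate 1 or siFLI1 replicate 2) and 3 to 6 in A673 (3 without siNeg replicate 1). The TC-32 median ran from 1.72 to 2.24. HIST2H4A in A673 ran from -0.17 to 0.67 and HIST1H2BJ in A673, not called, from -0.17 to 0.052. For RNAs without a poly(A) tail, each omission left 1 call in TC-71, where the full fit had 2, and RN7SL2 lost its call each time. A673 had 0 to 3 such calls, and 0 without siNeg replicate 3 or siFLI1 replicate 1. The calls of these RNAs were 1 in TC-71 without the filter, and 1 in A673 with DESeq2 and with limma-voom.

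With the replicate block, TC-71 and A673 each had 1 such RNA called, and the other counts of calls stayed within 1.5 times. Among single genes the block ended the calls of HIST1H2AG in TC-32 (adjusted p = 0.0534), SLBP and RN7SK in A673 (0.0969 and 0.0708) and RN7SL2 in TC-71 (0.0559), by edgeR. Same-numbered libraries deviated together with r between -0.08 and 0.04 across genes. No pairing by number was thus detected, which cannot exclude one. With library size alone, the log2 ratio of the summed level in A673 was 0.57 for H2B, 0.77 for H3, 0.42 for H4 and 0.51 for all members, where this scaling moved the median of all genes by -0.10. Over 108 gene results under 1576 alternatives, 1512 kept their direction and call, 54 lost the call, 8 gained it and 2 reversed.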
